A study of Mus musculus with 6 samples.

Results

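The genes of DNA replication and S phase were followed in macrophages sorted from mouse skin at 3 levels of CX3CR1, the receptor of the chemokine fractalkine. The set is a list of 37 genes chosen by name, by no threshold on measured values: the proteins that license, open and copy the DNA, the enzymes that make its building blocks, and the regulators that switch these genes on. The list was drawn up with earlier results of these data known. Of the 37 genes, 35 had an array probe set carrying exactly 1 gene symbol, and all 35 passed the filter on dim genes by their mean signal. They are 35 of 15529 genes tested. Rfc4 and Ccne2 were not analysed here, since their probe sets also carry the symbols of Eif4a2 and Ints8.

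Macrophages were sorted by FACS from digested ear skin of C57Bl/6 mice aged 2 weeks, in 3 subsets called CX3CR1low, CX3CR1int (intermediate) and CX3CR1high, and their amplified RNA was measured on Affymetrix arrays. All groups share the genotype Cx3cr1+/gfp, in which the gene for green fluorescent protein takes the place of a single copy of Cx3cr1, so that no sample comes from mice with both copies intact. Each subset had 2 samples, each from skin of 4 pooled mice, and the pairs of samples came from 2 independent litters. The samples of a subset are shared between the comparisons, which are therefore not independent. The sort gate was not given in the sources used here.

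Array medians lay between 4.84 and 4.94 on the log2 scale. Across genes, samples of the same subset correlated at 0.974 to 0.977 and samples of different subsets at 0.96 to 0.978. Macrophage genes were at a like level as a sum: the log2 of the summed signal of 9 markers, among them Adgre1 (F4/80) and Csf1r, lay between 14.29 and 14.47 in the 6 samples. Single markers differed more. Between CX3CR1high and CX3CR1low samples, 7 of the 9 were lower (48.4% of all genes) and 2 higher (50.7%). The log2 differences ran from -0.31 to 0.45, with a median of -0.14. Cx3cr1 itself had signals of 5.87 and 7.01 (CX3CR1low), 7.05 and 6.84 (CX3CR1int) and 10.55 and 9.51 (CX3CR1high). Replicates 1 and 2 differed in the level of the female transcript Xist (7.39 to 7.97 against 10.99 to 11.39), so that the spread within a subset includes a difference in sex composition.

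A cell copies its genome in S phase of the cell cycle. In G1 the origin recognition complex, with Cdc6 and Cdt1, loads the ring-shaped MCM helicase onto DNA, and Cdc45 and the GINS complex then turn that ring into an active helicase. Polymerases follow it, held to the DNA by the sliding clamp PCNA. E2F transcription factors, released when cyclin-dependent kinases act on the retinoblastoma protein, drive most of these genes at the G1/S border, and E2F7 and E2F8 repress the same targets later. Tissue macrophages can renew by local division, and skin of young mice is growing.

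Replication genes were as a group a little higher in CX3CR1high than in CX3CR1low samples, but no single gene passed the test across all genes. Since the list was chosen with earlier results of these data known, counts over it are descriptions, and no test was run over the list. Of the 35 genes, 34 were higher by any size, against 50.7% of all genes tested, and 1 was lower (48.4%), while 32 were higher when each array was centred on its median. The median log2 difference was 0.33, against 0.005 for all genes tested. In 24 of the 35, both CX3CR1high samples lay above both CX3CR1low samples, which held for 19.8% of all genes, and 1 lay the other way round (18.4% of all genes). limma called 0 of 35 at an adjusted p below 0.05, where it called 0.399% of all genes, and 14 were higher and 0 lower at an unadjusted p below 0.05, against 4.82% and 4.84% of all genes. With the replicate number as a block in the model, the repressor gene E2f8 was called, as were 0.992% of all genes. The 14 fell to 5 without the CX3CR1high sample 2 and to 7 without the CX3CR1low sample 2, while the number higher by any size was 32 and 31. Differences of this size were close to their error: the standard errors of the 35 lay between 0.12 and 0.29. In bulk samples, fewer cells in cycle and less RNA per cell cannot be told apart.

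By subset means, CX3CR1int lay between the other subsets for most of these genes, while single samples often overlapped. The subset means followed the order CX3CR1low, CX3CR1int, CX3CR1high in 22 of 35 genes, against 19.8% of all genes, and the reverse order in 1 (17.6%). The highest of the 6 values was in a CX3CR1high sample for 25 of the 35. Of these, 8 were in sample 1, where 21.4% of all genes had their highest value, and 17 in sample 2 (14%). The lowest value was in a CX3CR1low sample for 26. Of these, 9 were in sample 1, where 14.8% of all genes had their lowest value, and 17 in sample 2 (21.3%). Replicates also differed. In CX3CR1low and CX3CR1int, sample 1 was the higher for 25 of 35 genes in each, against 55.2% and 51.7% of all genes, with a median of sample 2 minus sample 1 of -0.14 and -0.2. In CX3CR1high, sample 2 was the higher for 22, against 47.5% of all genes, with a median of 0.17.

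**Figure D1:**
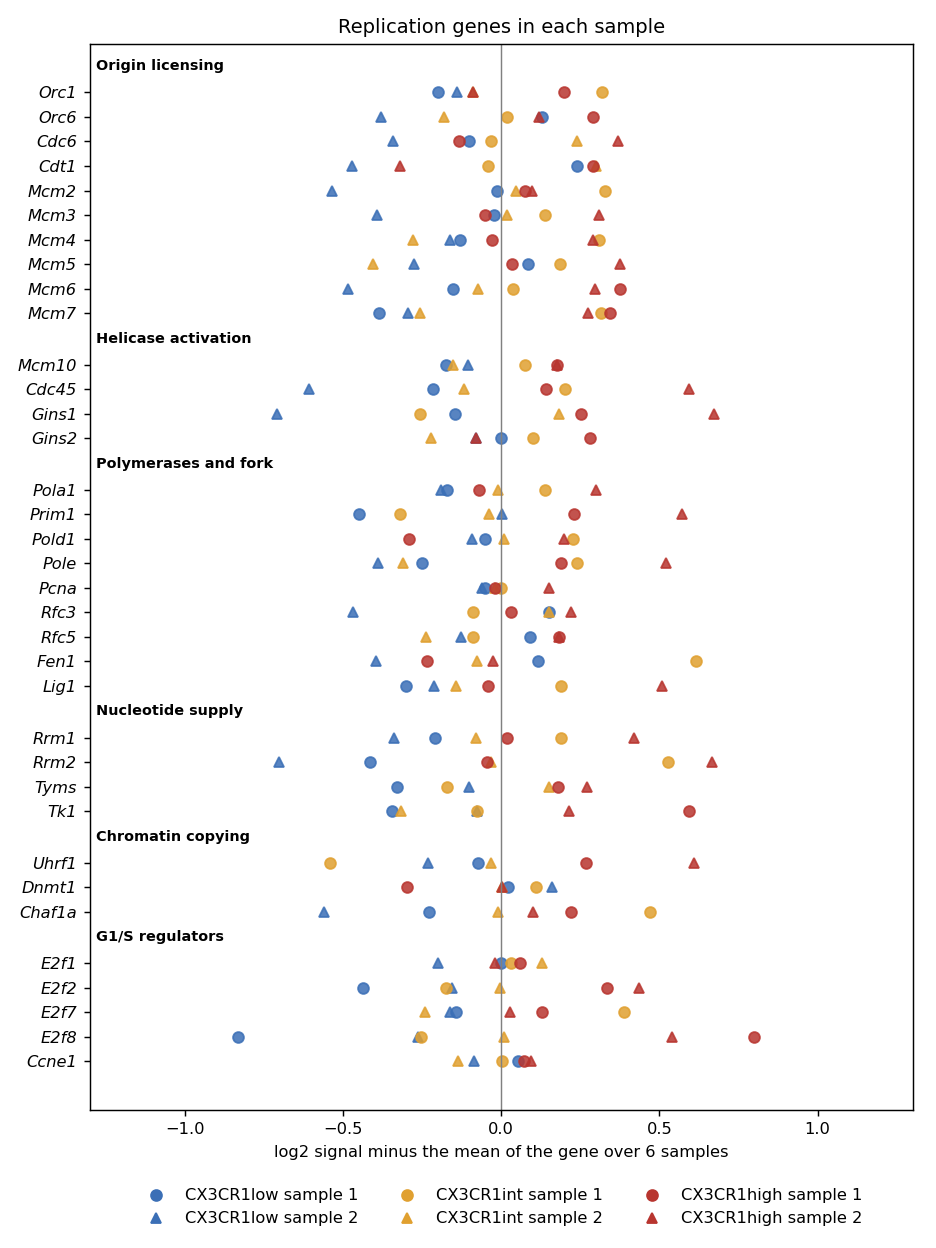
Log2 signal of 35 replication genes in each of 6 samples, as the distance from the mean of the gene over the samples (horizontal axis, log2 units), ordered by role. Circles are samples 1 and triangles samples 2, blue CX3CR1low, orange CX3CR1int and red CX3CR1high. Red points lie mostly to the right and blue ones to the left, and both red points lie right of both blue points in 24 genes.

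Many of the genes share a sequence feature, the E2F-type motif near the gene start. Since E2F factors drive most of these genes, their choice by role is not independent of this motif. RefSeq windows of 300 bases, from 250 bases before to 50 after a gene start in build GRCm38.p6, were at hand for 32 of the 37 genes, with 40 windows in all. The motif was searched on both strands as TTTCCCGC, TTTCGCGC, TTTGCCGC or TTTGGCGC. It was found in 15 of the 32 genes (46.9%), against 2.6% of 27025 genes and 2.26% of 32851 windows. CCAAT, the motif bound by NF-Y, was found in 21 of 32 (65.6%), against 41.1% of genes, and TTTGAA or TTCGAA, known as the CHR element of cell cycle promoters, in 8 (25%), against 21.7%. The windows of these genes were richer in G and C, with a median of 61.2% against 52.7%. The 15 measured genes with an E2F-type match had a median log2 difference between CX3CR1high and CX3CR1low samples of 0.3, and the 16 without had 0.4. For CCAAT the order was the other way, with a median of 0.36 in 21 genes with a match and 0.16 in 10 without, as for CHR, with 0.5 in 8 genes and 0.33 in 23. These medians were not tested against each other.

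Windows are shown for E2f8, the gene with the largest difference, for E2f2, Mcm6 and Mcm7, which were among the regulators and helicase subunits of smallest p, and for Rrm2, which has 2 probe sets. They are written 5′ to 3′ along the gene, and capitals mark the matches, where neighbouring or overlapping matches run together. Positions are counted from the start used for each window, with -1 as the base before it. That start was the annotated gene start in 23 of the 40 windows. The E2f8 window (chr7:48881547-48881846, minus strand) has no E2F-type match. Its CCAAT match, starting at -112, and its CHR match, at -20, are both on the other strand. That of E2f2 (chr4:136172024-136172323, plus strand) has CCAAT at -13 and the E2F-type motif at 40, and a second E2f2 window farther along the gene is not shown. Mcm6 (chr1:128359656-128359955, minus strand) has 3 E2F-type matches, at -110, -106 and -47. The first pair overlap, and the match at -106 is on the other strand. Its CCAAT matches, on the other strand, start at -57 and -14. Mcm7 (chr5:138171834-138172133, minus strand) has E2F-type matches at -165, on the other strand, and at 17, the last of which overlaps a CCAAT match at 24. Further Mcm7 matches are CCAAT on the other strand at -72 and -26 and CHR at -173, and a second Mcm7 window is not shown. The Rrm2 window (chr12:24708004-24708303, plus strand) holds CCAAT at -50 and neither other motif. A match is a run of letters and does not show binding.
E2f8: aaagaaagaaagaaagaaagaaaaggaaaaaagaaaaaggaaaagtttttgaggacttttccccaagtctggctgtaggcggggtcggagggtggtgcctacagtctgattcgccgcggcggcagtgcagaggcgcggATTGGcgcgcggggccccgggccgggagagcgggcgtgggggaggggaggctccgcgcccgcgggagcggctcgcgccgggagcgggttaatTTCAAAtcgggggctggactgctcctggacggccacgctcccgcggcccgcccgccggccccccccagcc
E2f2: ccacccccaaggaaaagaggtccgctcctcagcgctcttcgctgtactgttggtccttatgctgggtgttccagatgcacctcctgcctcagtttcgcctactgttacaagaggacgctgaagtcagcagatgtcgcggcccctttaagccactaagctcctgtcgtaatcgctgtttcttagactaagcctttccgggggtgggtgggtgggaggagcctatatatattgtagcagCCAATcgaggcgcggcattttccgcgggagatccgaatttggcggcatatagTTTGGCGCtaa
Mcm6: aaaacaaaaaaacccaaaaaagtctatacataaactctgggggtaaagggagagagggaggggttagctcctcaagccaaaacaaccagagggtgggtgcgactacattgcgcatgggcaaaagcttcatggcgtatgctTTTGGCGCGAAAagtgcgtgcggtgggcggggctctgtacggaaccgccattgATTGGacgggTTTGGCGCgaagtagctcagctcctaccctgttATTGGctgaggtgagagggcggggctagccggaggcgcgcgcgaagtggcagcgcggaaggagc
Mcm7: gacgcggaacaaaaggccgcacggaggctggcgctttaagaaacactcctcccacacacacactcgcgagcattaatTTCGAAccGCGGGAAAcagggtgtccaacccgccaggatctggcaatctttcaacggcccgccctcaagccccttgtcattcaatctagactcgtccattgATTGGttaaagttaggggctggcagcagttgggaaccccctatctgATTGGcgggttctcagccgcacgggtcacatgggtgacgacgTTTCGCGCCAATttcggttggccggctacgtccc
Rrm2: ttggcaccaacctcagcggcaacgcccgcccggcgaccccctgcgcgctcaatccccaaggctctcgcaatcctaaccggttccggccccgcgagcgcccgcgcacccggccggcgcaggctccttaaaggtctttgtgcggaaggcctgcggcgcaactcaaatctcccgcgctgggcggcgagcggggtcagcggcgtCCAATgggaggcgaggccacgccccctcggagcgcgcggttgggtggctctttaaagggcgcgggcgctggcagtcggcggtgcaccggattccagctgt

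**Figure D2:**
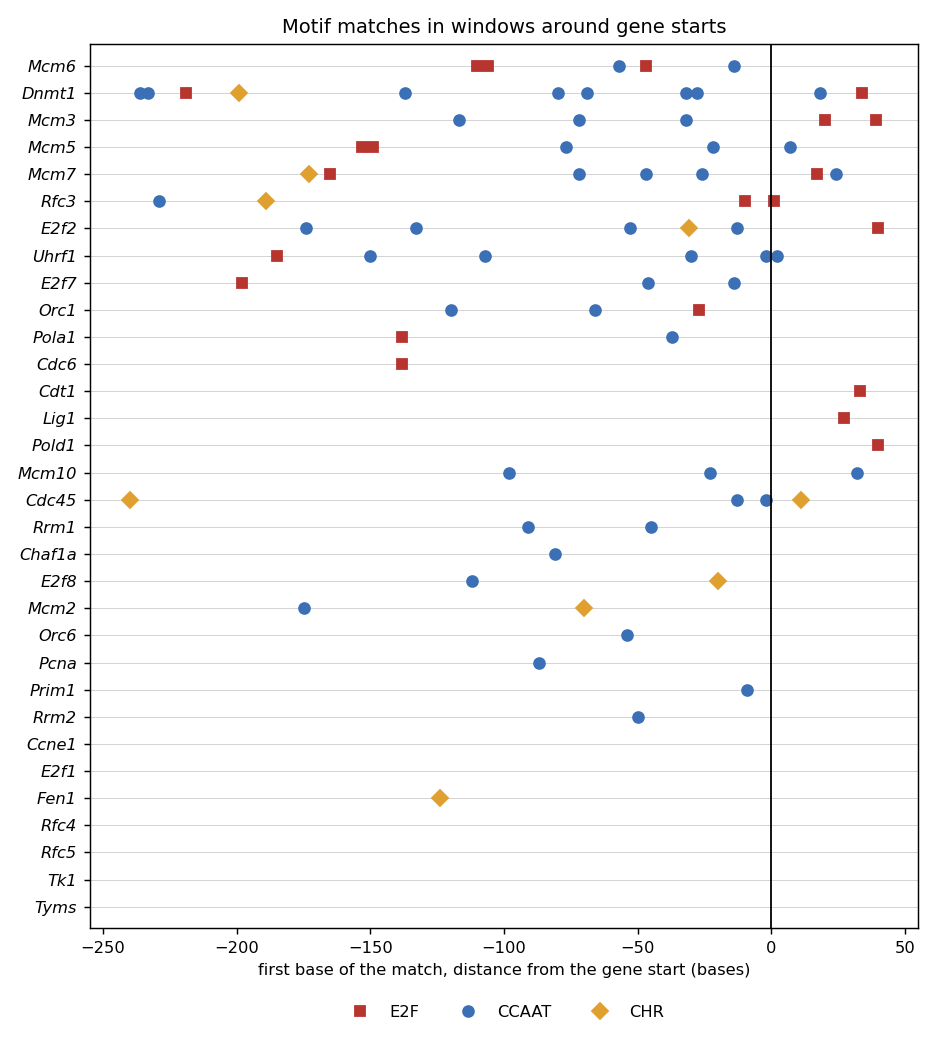
Distance from the start used for each window, in bases, of the first base of each motif match (horizontal axis) for 32 replication genes (rows). Squares are E2F-type, circles CCAAT and diamonds CHR matches, and windows of a gene with several starts are overlaid. Mcm6 has the most E2F-type matches in a window, 3, and 17 of the 32 rows have none.

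Among the G1/S regulators, E2f8 and E2f2 had the largest differences between CX3CR1high and CX3CR1low samples, and E2f1 and Ccne1 the smallest. E2f8, a repressor of E2F targets that is itself induced in S phase, had signals of 5.12 and 5.69 (CX3CR1low), 5.7 and 5.96 (CX3CR1int) and 6.75 and 6.49 (CX3CR1high). Both CX3CR1high samples lay above all others, and the nearest samples of the other subsets were nearly equal. The log2 difference between CX3CR1high and CX3CR1low was 1.21 ± 0.23 (SE, n = 2 per subset), or 2.32-fold, with an adjusted p of 0.0833 in limma. With the replicate block the adjusted p of E2f8 was 0.0483, past the threshold, and over all alternatives its adjusted p lay between 0.0483 and 0.411 and its difference between 0.93 and 1.5. E2f2, an activator, had signals of 4.53 and 4.81 (CX3CR1low), 4.79 and 4.96 (CX3CR1int) and 5.3 and 5.4 (CX3CR1high). Both CX3CR1high samples were again above all others, with a difference from CX3CR1low of 0.68 ± 0.18 (SE, adjusted p = 0.221). E2f1, the best-known activator, was at 6.36 and 6.16, 6.39 and 6.49, and 6.42 and 6.34 in CX3CR1low, CX3CR1int and CX3CR1high samples. Its subsets overlapped, and the difference of 0.12 had a 95% confidence interval from -0.28 to 0.52. E2f7, the partner repressor of E2f8, differed by 0.23 ± 0.22 (SE). Ccne1, which encodes cyclin E1, the partner of CDK2 at entry into S phase, had signals of 5.63 and 5.49 (CX3CR1low), 5.58 and 5.44 (CX3CR1int) and 5.65 and 5.67 (CX3CR1high). The CX3CR1high samples were the highest by a small margin, and the difference from CX3CR1low of 0.1 had an interval from -0.28 to 0.48.

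**Figure D3:**
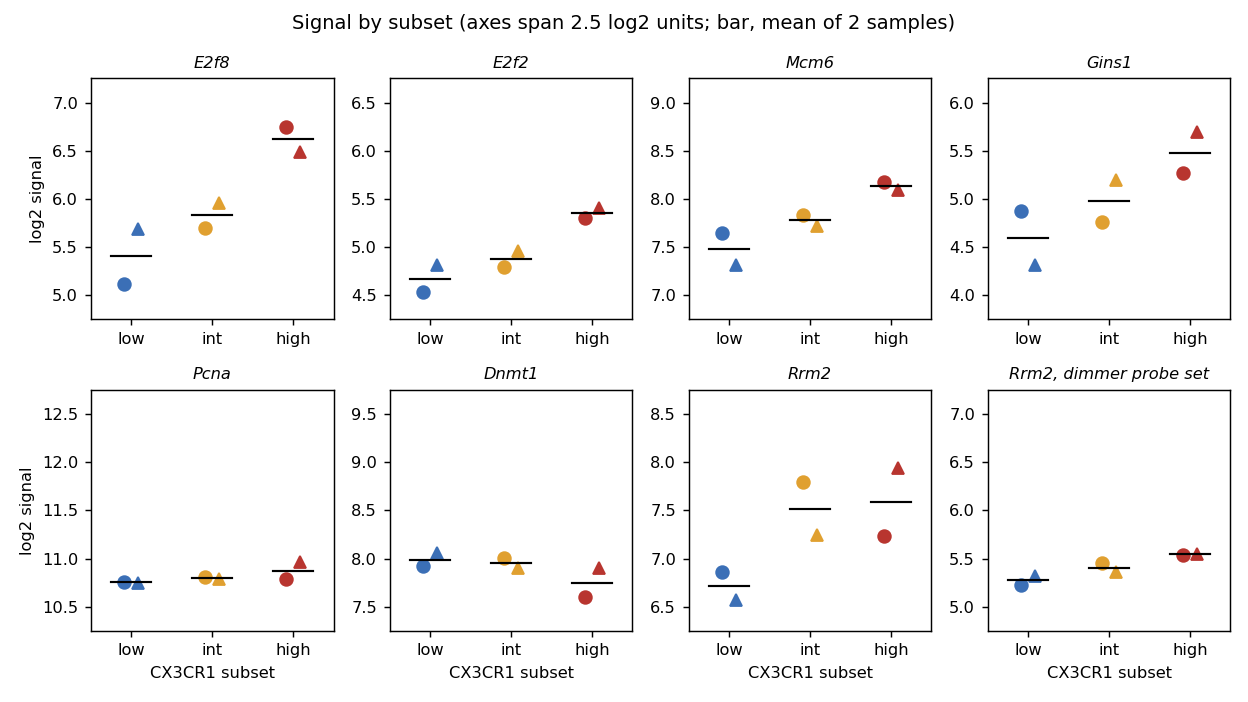
Log2 signal (vertical axis, 2.5 log2 units in every panel, not starting at 0) of 7 replication genes and of the dimmer probe set of Rrm2, by CX3CR1 subset. Circles are samples 1, triangles samples 2 and bars the mean of the 2 samples. E2f8 has the largest step, from 5.12 and 5.69 in CX3CR1low to 6.75 and 6.49 in CX3CR1high samples, while Pcna stays between 10.75 and 10.96.

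All 10 licensing genes were higher in CX3CR1high than in CX3CR1low samples (50.7% of all genes), with log2 differences from 0.1 to 0.65. In 5 of the 10, both CX3CR1high samples lay above both CX3CR1low samples (19.8% of all genes). At an unadjusted p below 0.05, 2 were higher (4.82%), and limma called 0 (0.399%). Mcm6 and Mcm7, subunits of the helicase ring, had the smallest p. Mcm6 had signals of 7.64 and 7.31 (CX3CR1low), 7.83 and 7.72 (CX3CR1int) and 8.17 and 8.09 (CX3CR1high). Its subsets did not overlap, and the difference was 0.65 ± 0.18 (SE, adjusted p = 0.255). Mcm7 was at 4.99 and 5.08, 5.69 and 5.12, and 5.72 and 5.65 in the same order. For Mcm7 the CX3CR1int samples spanned most of the range between the other subsets, and the difference was 0.65 ± 0.21 (SE, adjusted p = 0.349). Mcm2 had signals of 6.39 and 5.87 (CX3CR1low), 6.73 and 6.45 (CX3CR1int) and 6.48 and 6.5 (CX3CR1high). It was highest in CX3CR1int sample 1, and its difference of 0.36 between CX3CR1high and CX3CR1low had an interval from -0.13 to 0.85. Without the CX3CR1low sample 2 it was 0.1, and without the CX3CR1low sample 1 it was 0.62. The other ring subunits, Mcm3, Mcm4 and Mcm5, differed by 0.33, 0.27 and 0.3, so that the 6 subunits, which work in equal number, differed by 0.27 to 0.65 with standard errors of 0.18 to 0.25. The loaders Orc1, Orc6 and Cdc6 differed by 0.23, 0.33 and 0.34. Cdt1, the loader that is destroyed once S phase starts, was at 7.23 and 6.52, 6.95 and 7.29, and 7.28 and 6.67 in CX3CR1low, CX3CR1int and CX3CR1high samples. The range within a subset was wider than its difference of 0.1 ± 0.29 (SE), which turned negative without the CX3CR1low sample 2 or the CX3CR1high sample 1.

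The helicase activators had some of the larger differences. Gins1, a GINS subunit, had signals of 4.87 and 4.31 (CX3CR1low), 4.76 and 5.2 (CX3CR1int) and 5.27 and 5.69 (CX3CR1high). The CX3CR1high samples were above all others, and the difference from CX3CR1low was 0.89 ± 0.25 (SE, adjusted p = 0.26), with the value 4.31 just under the dim level of 4.335. Cdc45 was at 5.24 and 4.85, 5.66 and 5.34, and 5.6 and 6.05. Its CX3CR1low samples were the lowest, and the difference was 0.78 ± 0.23 (SE, adjusted p = 0.279). Gins2, another subunit of the same complex as Gins1, was at 6.89 and 6.81, 6.99 and 6.67, and 7.17 and 6.81. Its subsets overlapped, with a difference of 0.14 and an interval from -0.32 to 0.6, and the difference between the 2 subunits was not tested. Mcm10, which aids the activation step, differed by 0.31 ± 0.17 (SE).

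The 9 measured genes of polymerases and fork factors had a median log2 difference of 0.28 between CX3CR1high and CX3CR1low samples. Pole, the catalytic subunit of the leading-strand polymerase, had signals of 5.4 and 5.26 (CX3CR1low), 5.89 and 5.34 (CX3CR1int) and 5.84 and 6.17 (CX3CR1high). CX3CR1high lay above CX3CR1low without overlap (0.67 ± 0.23, SE, adjusted p = 0.361), and a dimmer Pole probe set differed by 0.38 ± 0.26 (SE). Prim1, the primase subunit that starts each new strand, had signals of 5.55 and 6.0 (CX3CR1low), 5.68 and 5.96 (CX3CR1int) and 6.23 and 6.57 (CX3CR1high). It was higher in sample 2 of every subset, and the CX3CR1high samples were above all others (0.62 ± 0.22, SE, adjusted p = 0.393). Pcna, the sliding clamp, was at 10.76 and 10.75, 10.81 and 10.79, and 10.79 and 10.96. These values span 0.21 log2 units over the 6 samples, and the difference of 0.12 had an interval from -0.16 to 0.4. Fen1, which trims the primers of the lagging strand, was at 5.9 and 5.39, 6.4 and 5.71, and 5.55 and 5.76. It was highest in CX3CR1int sample 1, and its difference of 0.01 ± 0.27 (SE) between CX3CR1high and CX3CR1low turned to -0.04 with each array centred on its median. A dimmer Fen1 probe set, below the dim level in all samples, differed by 0.34 ± 0.19 (SE). The others ranged from Pold1, a subunit of the lagging-strand polymerase (0.02), to Lig1, the ligase that joins lagging-strand fragments (0.49), with Pola1 at 0.3 and the clamp loaders Rfc3 and Rfc5 at 0.28 and 0.2.

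All 4 genes of nucleotide supply were higher in both CX3CR1high samples than in both CX3CR1low samples, and all 4 had an unadjusted p below 0.05, though none was called. The shares over all genes were 19.8% and 4.82%. Tk1, the thymidine kinase of the salvage route, had signals of 6.35 and 6.62 (CX3CR1low), 6.62 and 6.38 (CX3CR1int) and 7.29 and 6.91 (CX3CR1high). Only CX3CR1high stood apart for Tk1 (0.62 ± 0.21, SE, adjusted p = 0.369 against CX3CR1low). Tyms, thymidylate synthase, was at 5.87 and 6.1, 6.03 and 6.35, and 6.38 and 6.47. Its difference was 0.44 ± 0.19 (SE, adjusted p = 0.513), and Rrm1, the large subunit of ribonucleotide reductase, differed by 0.5 ± 0.2 (SE).

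Rrm2, the small subunit of ribonucleotide reductase, which limits the supply of deoxynucleotides, was read by 2 probe sets that differed in size. The brighter, which stands for the gene here, had signals of 6.86 and 6.57 (CX3CR1low), 7.8 and 7.24 (CX3CR1int) and 7.23 and 7.94 (CX3CR1high). CX3CR1low stood below both other subsets, which overlapped, with 0.87 ± 0.28 (SE, adjusted p = 0.342) between CX3CR1high and CX3CR1low and 0.81 ± 0.28 (SE, adjusted p = 0.97) between CX3CR1int and CX3CR1low. Without the CX3CR1high sample 2 the former was 0.52, and without the CX3CR1int sample 1 the latter was 0.53. The dimmer was at 5.23 and 5.32, 5.45 and 5.36, and 5.54 and 5.55. It kept the subsets apart in the order CX3CR1low, CX3CR1int, CX3CR1high, over a narrower range, with 0.27 ± 0.17 (SE) and 0.13 ± 0.17 (SE) for the same comparisons. Both probe sets thus had their lowest values in CX3CR1low. The difference between CX3CR1high and CX3CR1int was 0.06 ± 0.28 (SE) in the brighter and 0.14 ± 0.17 (SE) in the dimmer. The probe sets were not tested against each other.

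Of the 3 genes of chromatin copying, Dnmt1 was the only one of the 35 replication genes that was lower in CX3CR1high than in CX3CR1low samples. Dnmt1, the methyltransferase that copies DNA methylation onto the new strand, had signals of 7.92 and 8.06 (CX3CR1low), 8.01 and 7.9 (CX3CR1int) and 7.6 and 7.9 (CX3CR1high). CX3CR1high lay below CX3CR1low without overlap, but the difference of -0.24 ± 0.18 (SE) did not pass (adjusted p = 0.747), with an interval from -0.65 to 0.17. Uhrf1, which brings Dnmt1 to the fork, was at 6.19 and 6.03, 5.72 and 6.23, and 6.53 and 6.87. Its CX3CR1high samples were the highest (0.59 ± 0.22, SE, adjusted p = 0.433), so that these partners pointed in opposite directions, a contrast that was not tested. Chaf1a, the large subunit of the histone chaperone CAF-1, was at 4.71 and 4.38, 5.41 and 4.93, and 5.16 and 5.04. It was lowest in CX3CR1low and alike in both other subsets (0.55 ± 0.21, SE, adjusted p = 0.438).

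**Figure D4:**
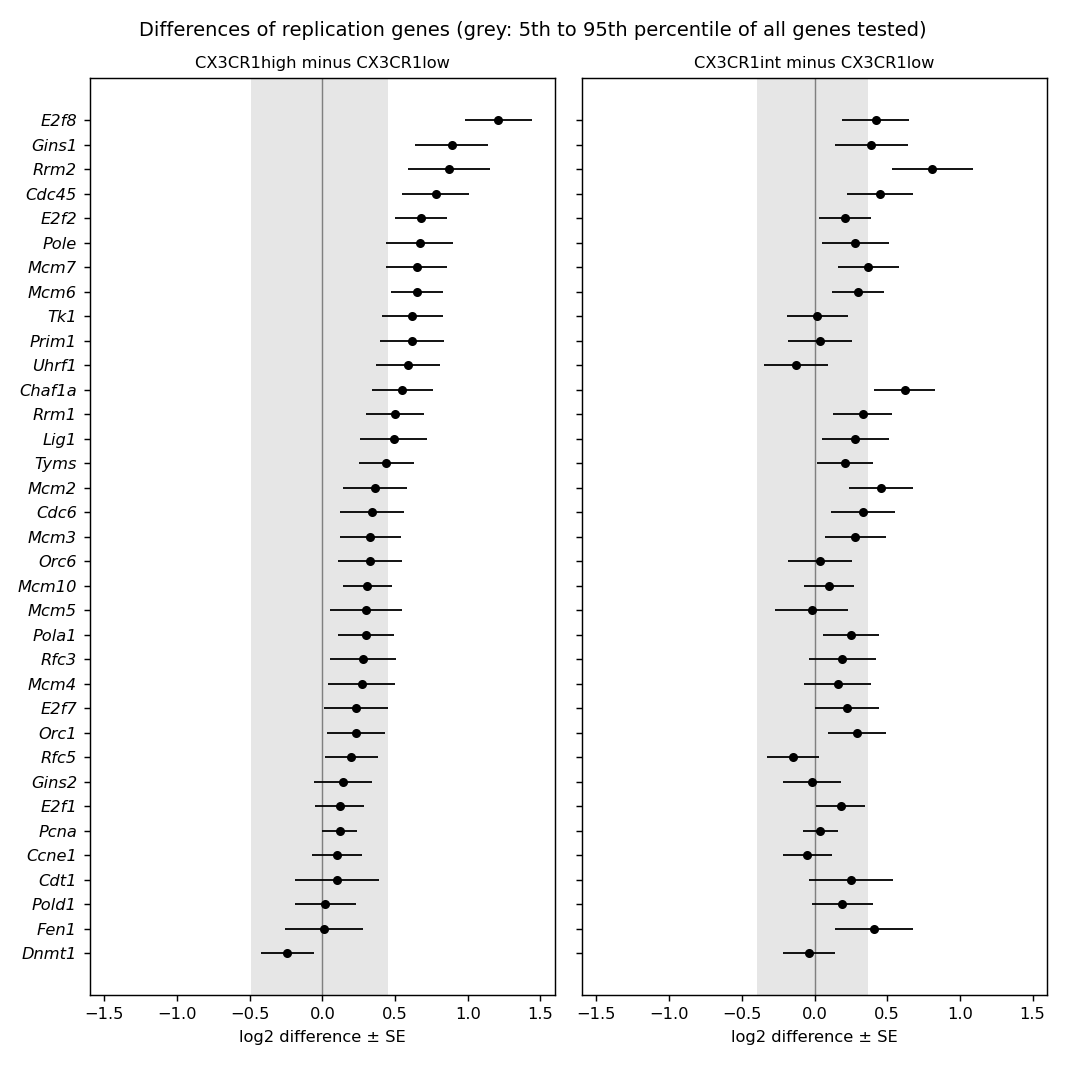
Log2 difference (horizontal axis) of 35 replication genes between CX3CR1high and CX3CR1low samples (left) and between CX3CR1int and CX3CR1low samples (right), with standard errors, ordered by the left panel. Both panels share the CX3CR1low samples, and the grey band holds the middle 90% of all genes tested. The values run from -0.24 for Dnmt1 to 1.21 for E2f8 on the left, and the brighter Rrm2 probe set lies highest on the right, at 0.81.

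The steps on either side of CX3CR1int differed between genes. Between CX3CR1high and CX3CR1int samples, 27 of 35 were higher (49.8% of all genes) with a median of 0.16, 12 without overlap (18.3%), and 0 were called by limma (0.142% of all genes). At an unadjusted p below 0.05, 5 were higher (4.17% of all genes) and 0 lower (3.72%): E2f8 (0.79 ± 0.23, SE), Uhrf1 (0.73 ± 0.22, SE), Tk1 (0.6 ± 0.21, SE), Prim1 (0.58 ± 0.22, SE) and E2f2 (0.48 ± 0.18, SE). Their adjusted p lay between 0.395 and 0.547, and the 5 became 2 without the CX3CR1high sample 2 and 3 without the CX3CR1int sample 1. Between CX3CR1int and CX3CR1low samples, 29 were higher (51.4% of all genes) with a median of 0.22, 16 without overlap (16.6%), and 0 were called (0.00644% of all genes). The 2 genes with an unadjusted p below 0.05 were Rrm2 and Chaf1a (0.62 ± 0.21, SE, adjusted p = 0.957), against 2.22% of all genes higher, and 0 were lower (2.67%). That number was 5 without the CX3CR1low sample 1 or the CX3CR1int sample 2, 1 without the CX3CR1low sample 2, and 0 without the CX3CR1int sample 1. For Rrm2 between CX3CR1high and CX3CR1int the difference was 0.06 ± 0.28 (SE). For E2f8 between CX3CR1int and CX3CR1low it was 0.42 ± 0.23 (SE). Mcm2 differed by 0.46 ± 0.22 (SE) there, and by 0.2 without the CX3CR1low sample 2.

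Set against the mean of both other subsets, CX3CR1high samples had 31 of 35 replication genes higher (50.9% of all genes), with a median of 0.26. In 11 both CX3CR1high samples were above all 4 others (9.49% of all genes), 0 were called by limma (0.38% of all genes), and 10 were higher and 0 lower at an unadjusted p below 0.05 (5.18% and 4.78%). The 10 became 4 without the CX3CR1high sample 2. E2f8 differed by 1.0 ± 0.2 (SE, adjusted p = 0.0983), Uhrf1 by 0.66 ± 0.19 (SE), Tk1 by 0.61 ± 0.18 (SE) and E2f2 by 0.58 ± 0.15 (SE). The samples of this comparison are those of the pairwise ones. With the replicate block, 0 of 35 were called against CX3CR1int (0.303% of all genes), between CX3CR1int and CX3CR1low (0%), or against the mean of both (0.972%).

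Other genes of the pathway had a median difference of 0.18 in the same samples, against 0.33 for the 35, and these medians were not tested against each other. Of 40 tested further replication genes, such as subunits of the polymerases and of the single-strand binding protein RPA, 31 were higher and 8 lower in CX3CR1high than in CX3CR1low samples (50.7% and 48.4% of all genes). By limma 0 of these were called (0.399% of all genes). At an unadjusted p below 0.05, 7 were higher and 0 lower (4.82% and 4.84% of all genes). Brca1, which acts in repair of broken forks, had signals of 4.25 and 4.15 (CX3CR1low), 4.69 and 4.22 (CX3CR1int) and 5.08 and 4.98 (CX3CR1high). Its CX3CR1low samples and CX3CR1int sample 2 lay below the dim level of 4.335, and the difference was 0.83 ± 0.2 (SE, adjusted p = 0.179). Tipin, of the complex that steadies the fork, differed by 1.03 ± 0.27 (SE, adjusted p = 0.208), Rad51ap1, a recombination factor, by 0.55, and Topbp1, of the replication checkpoint, by 0.62. Of 18 genes of G1/S control, which include the D cyclins and the retinoblastoma family, 10 were higher (50.7% of all genes) and 8 lower (48.4%). Their median was 0.04. By limma 0 of the 18 were called (0.399% of all genes), with 2 higher at an unadjusted p below 0.05 (4.82%). Ccna2, the cyclin of S phase and G2, was the gene of smallest p there (0.82 ± 0.27, SE, adjusted p = 0.355), at 8.43 in CX3CR1high sample 2 and between 7.15 and 7.54 in all others. The 7 inhibitors of cyclin-dependent kinases had a median of 0.15, with 0 called and 0 at an unadjusted p below 0.05, and Cdkn1b, which encodes p27, differed by 0.41 ± 0.19 (SE).

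Mitosis genes had larger differences than replication genes in the same samples, a contrast that was not tested. All 21 tested were higher in CX3CR1high than in CX3CR1low samples (50.7% of all genes), with a median of 0.71. The kinetochore gene Ndc80 was called by limma (1.68 ± 0.2, SE, adjusted p = 0.0168), as were 0.399% of all genes. With the replicate block Kif11, a spindle motor, was also called (0.992% of all genes). The mean log2 signal of the 35 replication genes stood at 6.2 and 6.07 (CX3CR1low), 6.43 and 6.28 (CX3CR1int) and 6.47 and 6.6 (CX3CR1high). That of the mitosis genes was 6.11 and 6.05, 6.43 and 6.33, and 6.58 and 7.05. CX3CR1high sample 2 was the highest for both lists.

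Markers of keratinocytes, fibroblasts and mast cells were mostly lower in CX3CR1high than in CX3CR1low samples, the opposite direction to the replication genes. Over all genes tested, 48.4% were lower in this comparison and 0.399% were called, or 0.992% with the replicate block. At an unadjusted p below 0.05, 4.84% of all genes were lower and 4.82% higher. Of 11 tested keratinocyte genes 10 were lower, and Krt10, a keratin of differentiating keratinocytes, was called (-1.46 ± 0.23, SE, adjusted p = 0.0439), as was Krtdap with the replicate block (-1.49 ± 0.47, SE, adjusted p = 0.00995 with the block and 0.325 without). The log2 of their summed signal stood at 11.2 and 11.92 (CX3CR1low), 10.72 and 10.91 (CX3CR1int) and 10.5 and 10.63 (CX3CR1high). Of 9 fibroblast genes 7 were lower, 0 were called by limma (5 with the replicate block) and 6 were lower at an unadjusted p below 0.05, and their summed signal was 11.67 and 12.28, 11.42 and 11.35, and 10.95 and 10.86. All 5 tested mast cell genes were lower, 3 of them called (the mast cell proteases Cpa3, Cma1 and Mcpt4), with a summed signal over 6 genes, 1 of them dim, of 9.44 and 8.92, 8.6 and 8.42, and 7.35 and 7.22. Langerhans cell markers, 3 in number, summed to 8.03 and 8.28, 7.64 and 8.04, and 8.3 and 8.69, with Cd207 (langerin) 1.22 higher in CX3CR1high than in CX3CR1low samples (adjusted p = 0.181). The other two Langerhans markers were lower there, with differences of -0.57 for Cdh1 (adjusted p = 0.407) and -0.16 for Epcam (adjusted p = 0.901), and the median of the list was -0.16. In the CX3CR1high samples the mean log2 signal was 6.57 and 6.58 for keratinocyte, 6.76 and 6.73 for fibroblast, and 4.59 and 4.51 for mast cell genes, the last near the dim level of 4.335. Of the lists of dendritic cells, monocytes, T and NK cells, B cells, neutrophils, endothelium, melanocytes and Schwann cells, each of 1 to 4 tested genes, 0 genes were called by limma between CX3CR1high and CX3CR1low samples. Their medians ranged from -0.66 (endothelium) to 0.39 (T and NK cells). At an unadjusted p below 0.05, 1 gene was higher and 1 lower in each of the dendritic cell, monocyte and T and NK cell lists, and 1 endothelial and 3 melanocyte genes were lower. With the replicate block 1 dendritic cell and 1 monocyte gene were called. The dendritic cell gene, Ccr7, was higher in CX3CR1high than in CX3CR1low samples by 1.31 ± 0.22 (SE). Its limma adjusted p was 0.0239 with the block and 0.051 without. Of the 4 dendritic cell genes, 3 were higher and 1 lower there (50.7% and 48.4% of all genes), with a median of 0.23. The monocyte gene, Ly6c2, which encodes a surface protein of classical monocytes, had signals of 6.48 and 7.11 (CX3CR1low), 7.35 and 7.9 (CX3CR1int) and 3.36 and 4.92 (CX3CR1high). It was lowest in CX3CR1high, with a difference of -2.66 ± 0.45 (SE, adjusted p = 0.0586) from CX3CR1low. The value 3.36 of CX3CR1high sample 1 lay below the dim level of 4.335, which limits the size of this difference. Ly6c2 had no other sample below that level. Ly6c2 was called against CX3CR1int (-3.48 ± 0.45, SE, adjusted p = 0.0421) and against the mean of both (adjusted p = 0.0183). The other monocyte markers were higher in CX3CR1high than in CX3CR1low samples, Ccr2 by 1.24 (adjusted p = 0.401) and Plac8 by 0.16 (adjusted p = 0.961). The median of the monocyte list was 0.16. The part of these markers in the values of the replication genes was not tested.

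**Figure D5:**
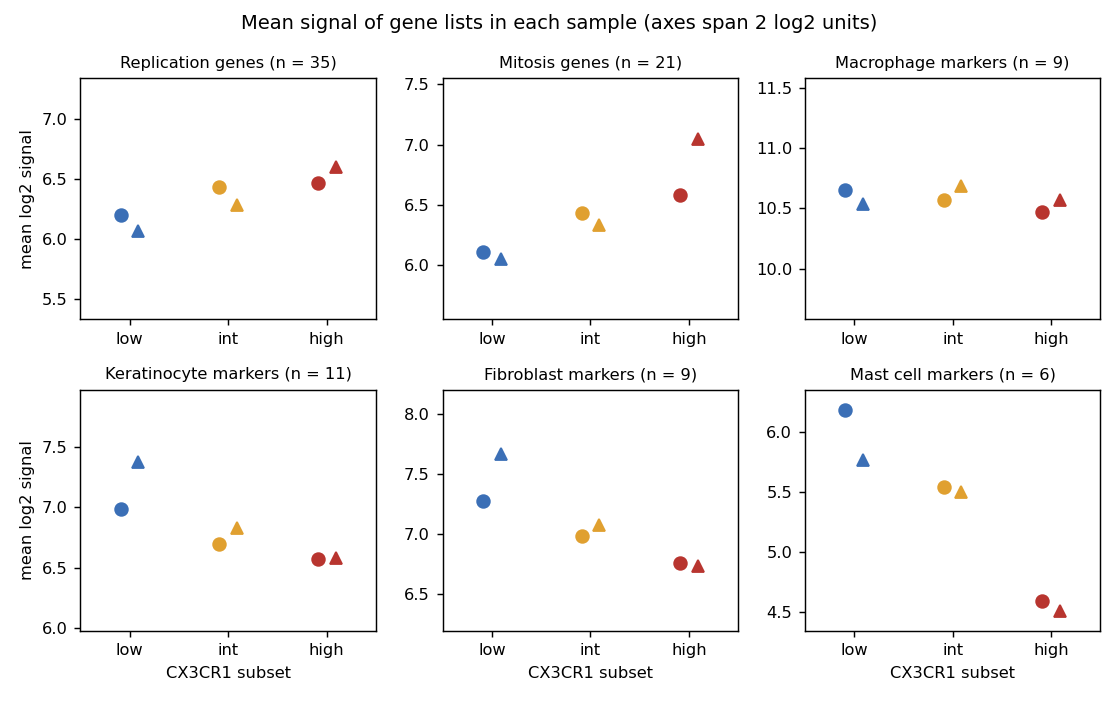
Mean log2 signal (vertical axis, 2 log2 units in every panel, not starting at 0) of the replication genes, mitosis genes and markers of 4 cell types, by CX3CR1 subset. Circles are samples 1 and triangles samples 2, with the number of genes in each title. Replication genes go from 6.2 and 6.07 in CX3CR1low to 6.47 and 6.6 in CX3CR1high samples, and the keratinocyte, fibroblast and mast cell lists go the other way.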

How the data were processed

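The authors deposited log2 signals per probe set, used as given. The submitters' processing notes name RMA and Affymetrix Expression Console 1.4. The genome build and probe annotation behind them were not given in the sources used here. RNA was amplified before labelling, per the labels' protocols. Of 34390 probe sets, 23521 carried exactly 1 gene symbol, and the brightest stood for each of 22180 genes. Genes whose mean over the samples was under 4.335, the 30th percentile, were left out as dim.

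The tests used limma 3.58.1 in R 4.3.3, with all 6 samples in one fit of subset means, an intensity trend in the prior and Benjamini-Hochberg adjustment over 15529 genes, two-sided. Calls needed an adjusted p under 0.05. The variance rested on 3 residual and 5.77 prior degrees of freedom. With 2 arrays a subset, the number of arrays limits the precision. The samples came from 2 litters. Deviations of same-numbered samples correlated across genes at 0.146, 0.136 and 0.178. The replicate number was therefore taken to pair samples in an alternative fit, as a block. The main fit did not use this pairing.

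Members and gene lists were chosen with earlier results of these data known. Values per sample are given for the 2 genes of smallest p and the gene of smallest rise, or fall, in each role, and always for Pcna, Mcm2, Rrm2, E2f1 and Ccne1. From other lists up to 4 genes of smallest p are named. Erythroid markers were not analysed here. Alternatives changed the dim filter, the prior, the normalization, the probe sets, the samples and the replicate block. Counts of replication genes higher under each alternative, including those without a sample, were added after seeing the data.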

Additional observations from a re-analysis of the deposited data

How the results depend on the processing

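No alternative called a replication gene, save the replicate block, which called 1 of 35, E2f8, between CX3CR1high and CX3CR1low. It changed no other call among the 36 differences of replication genes followed under the alternatives. Calls of other named genes did change with the block between CX3CR1high and CX3CR1low, such as those of Kif11, Krtdap and Ly6c2. Without a sample, the median of the replication genes lay between 0.26 and 0.47 for CX3CR1high against CX3CR1low, 0.04 and 0.32 against CX3CR1int, 0.12 and 0.28 for CX3CR1int against CX3CR1low, and 0.19 and 0.36 against the mean of both. With a sample left out, the lone sample of its subset is assumed to vary like the others.

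Direction changed for genes with small differences. Between CX3CR1high and CX3CR1low, leaving out a sample gave -0.26 to 0.46 for Cdt1, -0.04 to 0.32 for Gins2 and -0.25 to 0.26 for Fen1, and centring each array gave -0.04 for Fen1. Between CX3CR1high and CX3CR1int, Rrm2 lay between -0.29 and 0.42, and Fen1 was at 0.02 with the mean of its probe sets. Without a sample, other values that kept their direction lay between 0.52 and 1.23 for Rrm2, 0.1 and 0.62 for Mcm2, 0.4 and 0.85 for Prim1 and -0.39 and -0.09 for Dnmt1 between CX3CR1high and CX3CR1low. They lay between 0.47 and 0.98 for Uhrf1 against CX3CR1int, and 0.38 and 0.87 for Chaf1a, 0.2 and 0.72 for Mcm2 and 0.14 and 0.71 for E2f8 between CX3CR1int and CX3CR1low.

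Counts over all genes moved more. Of 62 genes called between CX3CR1high and CX3CR1low, the number was 26 with no filter on dim genes, 40 with centred arrays, 154 with the replicate block, 18 with every probe set on its own, and 0 (without the CX3CR1high sample 1) to 39 without a sample. For CX3CR1high against CX3CR1int, with 22, it was 0 with no filter, 4 with no intensity trend, 8 with quantile normalization, 14 with centring, 47 with the block, 0 with every probe set and 0 to 17 without a sample. The 1 call between CX3CR1int and CX3CR1low became 0 under no filter, no trend, quantile normalization, the block, every probe set or without any sample. Against the mean of both, with 59, it was 151 with the block, 39 with every probe set and 0 to 56 without a sample. The cause was not tested. Signals near the dim level limit Gins1, Cdc6, E2f2 and Chaf1a.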
